A study of Mus musculus with 6 samples.

Results

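The 10 genes described here encode proteins that the mouse oocyte secretes or builds into the coat around itself, together with the proteases it releases. They were taken by symbol from the 55335 genes listed for each library, and each symbol had 1 row. The set was selected on measured values, the DRB to Con difference in level, because Oosp3 had been called higher in treated embryos while most maternal transcripts had not. The DRB to Con differences of the members are therefore given as a description, with fold changes and errors but without p-values. The libraries were made from mouse 4-cell embryos by Smart-Seq2, an oligo-dT primed method that copies and amplifies whole mRNAs of a few cells, and they form 2 groups of 3. DRB embryos were zygotes given 20 µM DRB, a ribonucleoside analogue, from 6 h after fertilization for 20 h, then washed and grown for 26 h in inhibitor-free KSOM. DRB blocks elongation by RNA polymerase II through the kinase CDK9. Con embryos are the control group, for which the sources used here give neither a vehicle nor separate culture times. Strain and the number of embryos per library are likewise not given in the sources used here, and nothing says whether the 3 libraries of a group came from separate cultures, so p-values measure the spread between these libraries only.

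The zona pellucida is a glycoprotein coat built by the growing oocyte, and in the mouse its structural genes are Zp1, Zp2 and Zp3. Gdf9 and Bmp15 encode growth factors of the TGF-beta family that signal from the oocyte to the granulosa cells around it. Astl encodes ovastacin, a protease of the cortical granules that cleaves ZP2 after fertilization, and Plat encodes tissue-type plasminogen activator, whose mRNA is stored silent in the oocyte and translated during meiotic maturation. Oosp1, Oosp2 and Oosp3 encode small oocyte-secreted proteins related to the placental protein Plac1. These genes are known for transcription in the growing oocyte, so much of their RNA in a cleaving embryo is usually regarded as left over from the egg.

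The values are FPKM, fragments per kilobase of transcript, scaled to each library's total, which allow levels of different genes to be compared. Depth, estimated from the steps between low values, was 22900000 to 24900000 fragments in DRB libraries and 22100000 to 23900000 in Con libraries. Pearson's r of log2(FPKM + 1) between libraries was 0.909 to 0.937 within DRB, 0.935 to 0.944 within Con and 0.869 to 0.915 between the groups, and DRB replicate 1 had the lowest mean r with its own group (0.913). Levels of 82 other listed maternal transcripts of the egg spanned a wide range. Dppa3, a maternal chromatin protein and the most abundant of them, was at 20236 ± 6001 FPKM in DRB and 18713 ± 3881 FPKM in Con (SD, n = 3 each), while 2 were at 0 in all 6 libraries and the median log2(FPKM + 1) of the 69 that were tested was 2.85 ± 0.48 in DRB and 3.08 ± 0.51 in Con. Nobox and Figla, which encode regulators of oocyte genes, averaged 0.0233 and 0.480 FPKM in DRB and 0.327 and 0 FPKM in Con. Of 17 listed cumulus and granulosa cell markers 7 were at 0 in all 6 libraries. The summed level of the list was 146.5 to 277.2 FPKM in DRB and 213.3 to 387.4 FPKM in Con. Most of it came from Gja1, a gap junction gene that embryos also use. Amhr2, another marker of the list, was at 23.6 ± 4.26 FPKM in DRB and 19.7 ± 3.18 FPKM in Con. The 13 sperm markers summed to 12.5 to 24.2 FPKM in DRB and 12.7 to 22.8 FPKM in Con, with 4 at 0 throughout, and the 10 blood markers to 47.7 to 90.2 FPKM in DRB and 77.3 to 120.9 FPKM in Con, none of them at 0 throughout. Of these lists 2 cumulus, 2 sperm and 5 blood markers reached 1 FPKM in at least 3 libraries, the filter for a test, and limma, a linear-model test fitted across all such genes, called 0 at an adjusted p below 0.05 (1, the blood marker Cd68, at an unadjusted p below 0.05 and lower in DRB). The median log2 fold changes of the 3 lists were -0.18, 0.15 and -0.60. Their part in the results was not tested.

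Oosp3, Oosp1 and Oosp2 lie side by side on chromosome 19 within 64.6 kb (GRCm38). Oosp3 (ENSMUSG00000055933.13, 11697055 to 11711874, plus strand) and Oosp1 (ENSMUSG00000041857.10, 11667460 to 11691150, minus strand) are transcribed away from each other from starts 5.91 kb apart, and Oosp2 (ENSMUSG00000055895.6, 11647279 to 11660559, minus strand) follows Oosp1. Their transcripts shared 0 of their 31-base words with each other, and of the 820 such words of Oosp3 31 were also in Gm19224, a pseudogene on the opposite strand that overlaps its exons by 57 bases and was listed at 0 in all 6 libraries. Promoters from RefSeq (GRCm38.p6, 250 bases before the start to 50 after it) were at hand for 5 of the 10 members. These were Oosp1, Oosp2, Zp3, Bmp15 and Astl, so the promoter of Oosp3 was not searched. Those of Oosp1 and of its neighbour Oosp2 are shown because the groups were separate for Oosp1 and overlapped for Oosp2. That of Zp3 is shown because Zp3 was the zona gene with the highest level. Capitals mark E-boxes (CANNTG, searched on both strands), the kind of element that the oocyte factor FIGLA and its partners bind.
Oosp1, chr19:11691002-11691301, minus strand: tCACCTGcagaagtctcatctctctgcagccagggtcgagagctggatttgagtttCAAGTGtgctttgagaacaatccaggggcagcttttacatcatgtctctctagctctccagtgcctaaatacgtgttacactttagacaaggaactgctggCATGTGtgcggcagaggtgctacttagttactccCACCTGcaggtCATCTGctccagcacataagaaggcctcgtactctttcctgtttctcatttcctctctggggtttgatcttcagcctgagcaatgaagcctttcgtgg
Oosp2, chr19:11660510-11660809, minus strand: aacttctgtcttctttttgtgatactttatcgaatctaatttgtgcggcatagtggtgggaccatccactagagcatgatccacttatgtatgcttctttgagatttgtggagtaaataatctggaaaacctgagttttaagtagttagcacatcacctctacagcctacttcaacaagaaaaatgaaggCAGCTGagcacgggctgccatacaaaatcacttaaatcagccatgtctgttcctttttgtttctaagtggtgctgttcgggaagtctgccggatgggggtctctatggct
Zp3, chr5:135979855-135980154, plus strand: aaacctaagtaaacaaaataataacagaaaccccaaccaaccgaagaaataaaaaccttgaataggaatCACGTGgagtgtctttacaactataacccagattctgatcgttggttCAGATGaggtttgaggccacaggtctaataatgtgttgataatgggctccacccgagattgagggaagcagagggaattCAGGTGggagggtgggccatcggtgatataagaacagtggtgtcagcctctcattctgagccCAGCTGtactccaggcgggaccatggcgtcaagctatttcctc
The Oosp1 promoter held 5 E-boxes, at 249, 194, 93, 59 and 48 bases before the RefSeq start. The Oosp2 promoter held 1, at 60 bases before its start, and the Zp3 promoter 4. The RefSeq start of Oosp1 lies inside the gene span given above, which reaches to 11691150. The Oosp1 boxes at 93, 59 and 48 bases before the RefSeq start therefore lie within that span. An E-box was found in 72.3% of the 32841 RefSeq promoters of this length, so its presence is common. The number of E-boxes per promoter was not compared with other promoters, and a link to the levels was not tested. The NOBOX elements TAATTG and TAATTA, held by 8.0% and 5.29% of promoters, and the box TATAAA, held by 13.6%, had 0 matches in these 3 promoters on either strand. Of the promoters not shown, that of Bmp15 held 1 TAATTA, at -225 from the start, and 1 TATAAA, at -155. Those of Astl held 0 of these elements.

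Oosp3 was the member with the largest difference between the groups. It stood at 132.98, 369.4 and 44.76 FPKM in DRB replicates 1 to 3, against 14.51, 29.13 and 11.26 FPKM in Con replicates 1 to 3. The groups did not overlap, and the lowest DRB library was 1.54 times the highest Con library. The means were 182.4 ± 167.9 FPKM in DRB and 18.3 ± 9.52 FPKM in Con (SD, n = 3 each), and the log2 fold change of FPKM + 1 was 2.88 ± 0.63 (SE). In pooled RNA, fewer cells with a transcript and less of it per cell cannot be told apart. The spread among DRB libraries was wide: the highest was 8.25 times the lowest, and 2.07% of tested genes had a larger SD of log2 values within DRB. In the ranking of 11893 tested genes within each library, 7.95%, 3.29% and 17.2% of genes lay above Oosp3 in DRB replicates 1 to 3, and 37.6%, 24.5% and 41.0% in Con replicates 1 to 3.

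Oosp1 was also higher in each DRB library than in any Con library. It stood at 177.71, 199.13 and 49.78 FPKM in DRB replicates 1 to 3, against 30.88, 47.92 and 37.73 FPKM in Con replicates 1 to 3. The margin was small, since DRB replicate 3 was 1.04 times Con replicate 2. Oosp1 averaged 142.2 ± 80.8 FPKM in DRB and 38.8 ± 8.57 FPKM in Con (SD, n = 3 each), a log2 fold change of 1.64 ± 0.47 (SE). The DRB libraries were in the order replicate 2 above 1 above 3 for Oosp1 and Oosp3, an order shared by 6 of the 10 members, with Oosp2, Zp2, Gdf9 and Bmp15.

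**Figure D1:**
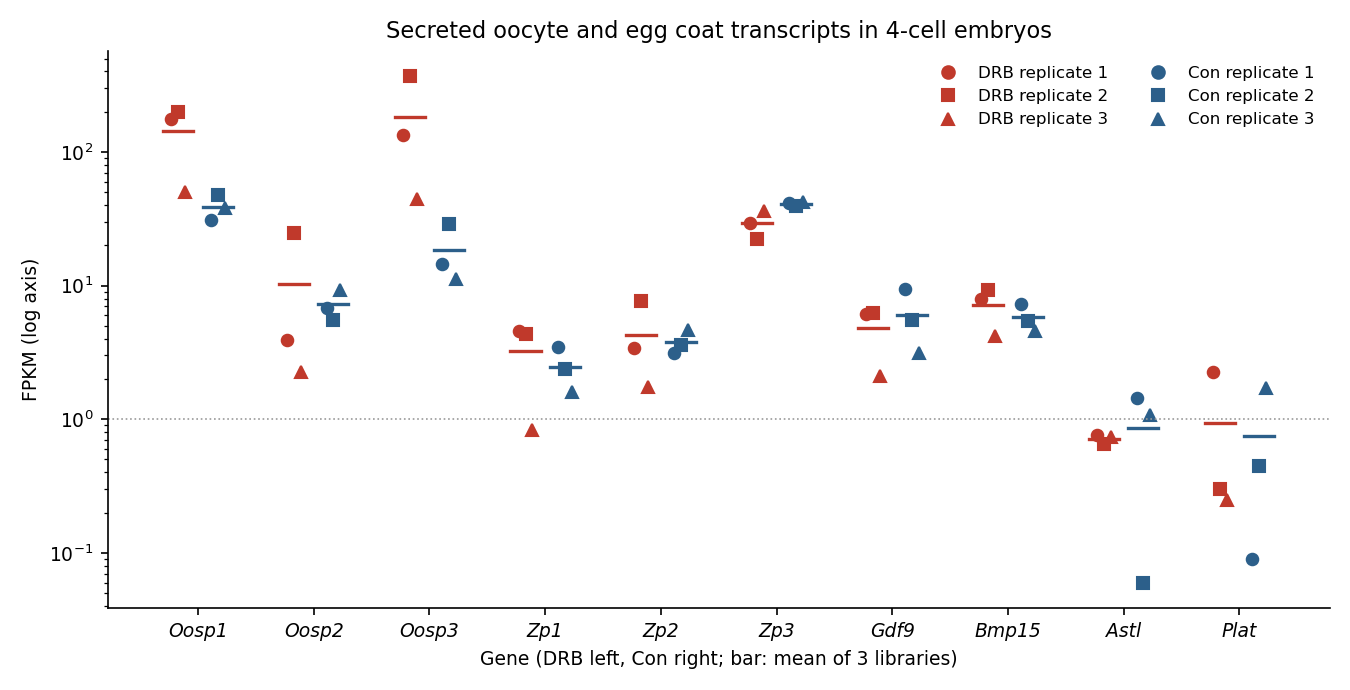
FPKM of the 10 members on a log axis in each library, DRB in red on the left and Con in blue on the right of each gene, with a bar at the mean of 3 libraries and a dotted line at 1 FPKM. Oosp1 and Oosp3 are the members with all DRB points above all Con points, Zp3 the member with all DRB points below them, and the other 7 overlap.

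Oosp2, the third gene of the cluster, did not differ in this way. It stood at 3.9, 24.59 and 2.27 FPKM in DRB replicates 1 to 3, against 6.85, 5.57 and 9.34 FPKM in Con replicates 1 to 3. Here DRB replicate 2 lay above all Con libraries and the other DRB libraries below them. The log2 fold change was -0.13 ± 0.67 (SE), with a 95% interval of -1.59 to 1.34.

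The make-up of the family shifted with these levels. Oosp1, Oosp2 and Oosp3 summed to 314.59, 593.12 and 96.81 FPKM in DRB replicates 1 to 3 and to 52.24, 82.62 and 58.33 FPKM in Con replicates 1 to 3. Oosp3 made up 42.3%, 62.3% and 46.2% of the sum in DRB replicates 1 to 3, against 27.8%, 35.3% and 19.3% in Con replicates 1 to 3. Oosp2 made up 1.24% to 4.15% in DRB and 6.74% to 16.0% in Con. The ratio of Oosp3 to Oosp1 was 0.748, 1.86 and 0.899 in DRB replicates 1 to 3 and 0.470, 0.608 and 0.298 in Con replicates 1 to 3, so Oosp3 exceeded Oosp1 in DRB replicate 2 but in none of the other 5 libraries.

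**Figure D2:**
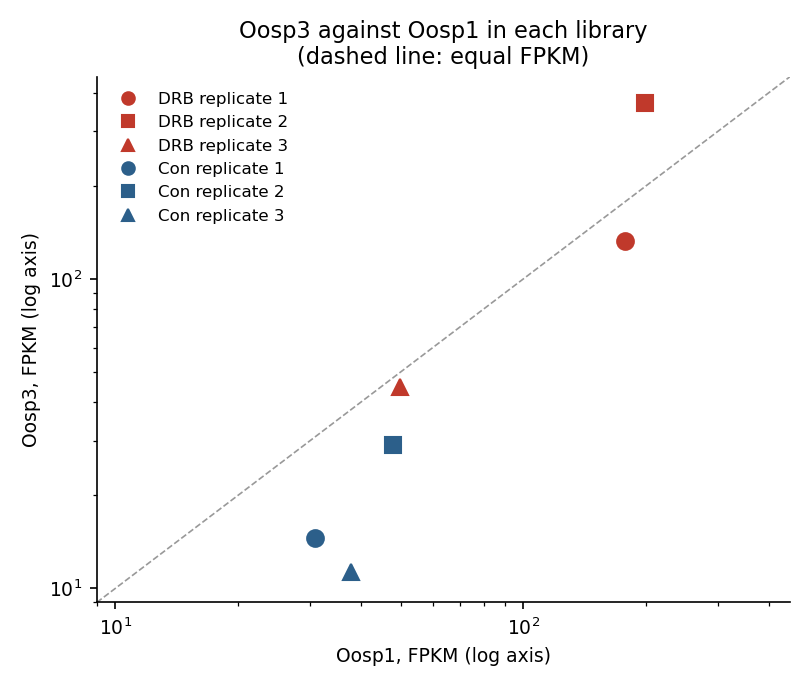
Oosp3 against Oosp1 in each of the 6 libraries, both in FPKM on log axes, with a dashed line where the levels are equal. DRB libraries (red) run from 49.78 to 199.13 FPKM for Oosp1 and from 44.76 to 369.4 FPKM for Oosp3, and DRB replicate 2 is the point above the line.

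The genes that flank the cluster were compared next. The nearest tested genes after Oosp3 are Mrpl16, a mitochondrial ribosomal protein 58.5 kb away, and Stx3, a syntaxin of membrane fusion 63.2 kb away. Mrpl16 was at 18.5 ± 4.67 FPKM in DRB and 21.2 ± 8.45 FPKM in Con (SD, n = 3 each; log2 fold change -0.15 ± 0.37 SE, limma adjusted p 0.884). Stx3 was at 2.60 ± 1.79 FPKM in DRB and 1.80 ± 0.308 FPKM in Con (limma adjusted p 0.821). Besides Oosp1 and Oosp2, 7 genes within 500 kb of Oosp3 were tested, and limma called 0 of them at an adjusted p below 0.05 (0 at an unadjusted p below 0.05). Their log2 fold changes ran from -0.44 to 0.81, and the groups overlapped for each. Most genes of the neighbouring Ms4a family, membrane proteins known from blood cells, did not reach the filter.

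**Figure D3:**
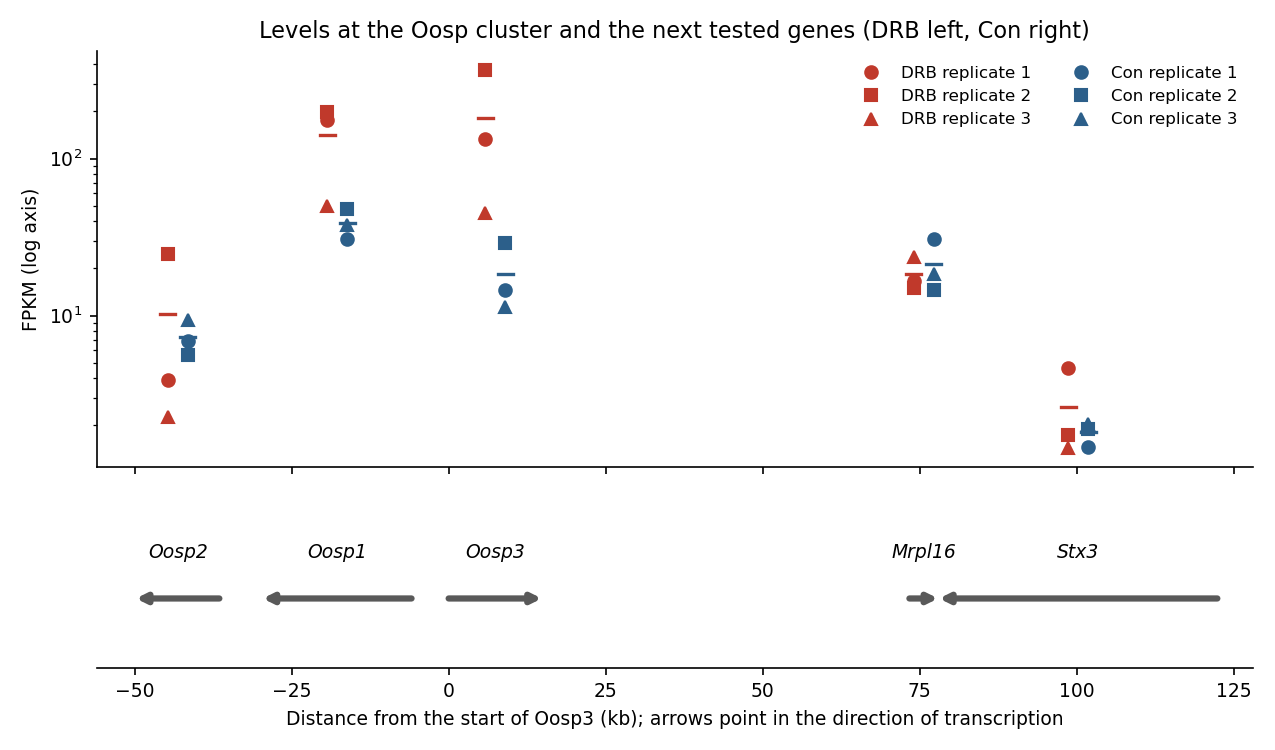
FPKM on a log axis (top) and position (bottom) of Oosp2, Oosp1, Oosp3 and the next 2 tested genes, Mrpl16 and Stx3, by distance in kb from the start of Oosp3. DRB points are left of Con points with bars at the means of 3 libraries, and arrows give the direction of transcription. The groups are separate at Oosp1 and Oosp3 and overlap at Oosp2, Mrpl16 and Stx3.

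The zona pellucida genes were not higher in DRB embryos as a group. Zp3 (chromosome 5, 135980099 to 135988624, plus strand) stood at 29.56, 22.15 and 36.44 FPKM in DRB replicates 1 to 3, against 41.42, 39.26 and 42.06 FPKM in Con replicates 1 to 3. All DRB libraries lay below all Con libraries, with a log2 fold change of -0.49 ± 0.30 (SE). Its spread in Con was among the narrowest of the tested genes, since 98.4% of them had a larger SD of log2 values there. Zp2, the chain that ovastacin cleaves (chromosome 7, 120126772 to 120145291, minus strand), stood at 3.43, 7.63 and 1.73 FPKM in DRB replicates 1 to 3, against 3.11, 3.58 and 4.67 FPKM in Con replicates 1 to 3. The DRB libraries lay on both sides of Con, with a log2 fold change of -0.01 ± 0.49 (SE). Zp1, which cross-links the filaments of the coat (chromosome 19, 10914287 to 10920632, minus strand, 726.6 kb from Oosp2), stood at 4.56, 4.31 and 0.83 FPKM in DRB replicates 1 to 3, against 3.47, 2.36 and 1.59 FPKM in Con replicates 1 to 3. Again DRB replicate 3 was the lowest of all libraries and the other DRB libraries the highest, with a log2 fold change of 0.16 ± 0.51 (SE). The 3 zona genes summed to 36.9 ± 2.52 FPKM in DRB and 47.2 ± 1.72 FPKM in Con (SD, n = 3 each). Zp3 gave 65.0% to 93.4% of the sum in DRB and 86.3% to 87.0% in Con.

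The oocyte growth factors had overlapping levels in the DRB and Con groups. Gdf9 (chromosome 11, 53431023 to 53437904, plus strand) stood at 6.11, 6.24 and 2.09 FPKM in DRB replicates 1 to 3, against 9.49, 5.49 and 3.15 FPKM in Con replicates 1 to 3. Bmp15 (chromosome X, 6314107 to 6320721, minus strand) stood at 7.93, 9.25 and 4.22 FPKM in DRB replicates 1 to 3, against 7.31, 5.47 and 4.55 FPKM in Con replicates 1 to 3. The groups overlapped for both genes, with log2 fold changes of -0.28 ± 0.50 and 0.23 ± 0.42 (SE). The 95% intervals of these changes ran from -1.39 to 0.83 for Gdf9 and from -0.70 to 1.15 for Bmp15. The ratio of Gdf9 to Bmp15 within a library was 0.647 ± 0.140 in DRB and 0.998 ± 0.303 in Con (SD, n = 3 each), ranges that overlap.

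The proteases had low levels and were not tested, since each reached 1 FPKM in 2 of the 6 libraries where the filter asks for 3. Astl (chromosome 2, 127338639 to 127357651, plus strand) stood at 0.76, 0.65 and 0.74 FPKM in DRB replicates 1 to 3, against 1.45, 0.06 and 1.08 FPKM in Con replicates 1 to 3. By the estimated depth and the longest coding transcript of 2377 bases, the lowest Con value stands for about 3.15 fragments, the other Con values for about 52.7 and 74.2, and the DRB values for about 33.0 to 40.9. Plat (chromosome 8, 22757727 to 22782844, plus strand) stood at 2.27, 0.3 and 0.25 FPKM in DRB replicates 1 to 3, against 0.09, 0.45 and 1.7 FPKM in Con replicates 1 to 3. In each group 1 library carried most of the Plat signal, about 123 fragments in DRB replicate 1 and 88.5 in Con replicate 3, and the groups overlapped.

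In the limma fit over 11893 genes that passed the filter, 1 of the 8 tested members was called at an adjusted p below 0.05, Oosp3, beside 2.48% of all tested genes in either direction and 1.53% higher in DRB. This is the contrast that chose the set, so the count is a description. The groups did not overlap for 3 of the 8, beside 23.8% of all tested genes. DRB lay wholly above Con for Oosp1 and Oosp3 and wholly below it for Zp3, as it did for 9.85% and 13.9% of all tested genes. Apart from Oosp1 and Oosp3, the 6 other tested members had log2 fold changes of -0.49 to 0.23, and the median of all tested genes was -0.09. The call of Oosp3 held without DRB replicate 3 or Con replicate 2 and was lost without any of the other 4 libraries, with log2 fold changes of 2.13 to 3.64 over these 6 fits; it was also lost when 0.1 was added to FPKM in place of 1, and when low genes were kept in the fit. Without DRB replicate 3 Oosp1 was called too, with a log2 fold change of 2.27.

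The order of levels differed between the groups mainly at its head. In DRB the order by mean FPKM was Oosp3, Oosp1, Zp3, Oosp2, Bmp15, Gdf9, Zp2, Zp1, Plat and Astl, and Oosp1 and Zp3 were the neighbours whose ranges did not overlap. In Con the order was Zp3, Oosp1, Oosp3, Oosp2, Gdf9, Bmp15, Zp2, Zp1, Astl and Plat, and the ranges did not overlap between Oosp1 and Oosp3, Oosp3 and Oosp2, or Zp1 and Astl. Relative to Zp3, Oosp3 was 1.23 to 16.7 times as high in DRB and 0.268 to 0.742 times as high in Con.

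Set against other maternal transcripts, Oosp3 and Oosp1 stood at the upper end of the changes. The set was chosen because Oosp3 had been called while most maternal transcripts had not, so this contrast is a description. Of 82 listed genes of the growing oocyte or egg that the files hold, 69 passed the filter, and limma called 0 in either direction at an adjusted p below 0.05 (2 lower and 0 higher at an unadjusted p below 0.05, against 18.1% of all tested genes in either direction). Their log2 fold changes ran from -1.46 for H1foo, the oocyte linker histone, to 0.90 for Rfpl4b, with a median of -0.13, and 0 of the 69 exceeded Oosp1 or Oosp3. On the log2(FPKM + 1) scale Oosp3 lay 3.98, 5.36 and 3.22 above the median level of these 69 transcripts in DRB replicates 1 to 3, and 0.30, 2.17 and 0.79 above it in Con replicates 1 to 3. The number of the 69 that were more abundant than Oosp3 was 4, 3 and 6 in DRB replicates 1 to 3 and 30, 11 and 22 in Con replicates 1 to 3. The median level itself was 3.09, 3.17 and 2.30 in DRB replicates 1 to 3 and 3.66, 2.75 and 2.83 in Con replicates 1 to 3, with DRB replicate 3 the lowest of all, as it was for Oosp2, Zp1, Zp2, Gdf9 and Bmp15. The most abundant listed transcripts, Dppa3 and Omt2b, differed by 0.09 and -0.004 on the log2 scale (limma, adjusted p 0.923 and 0.997).

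**Figure D4:**
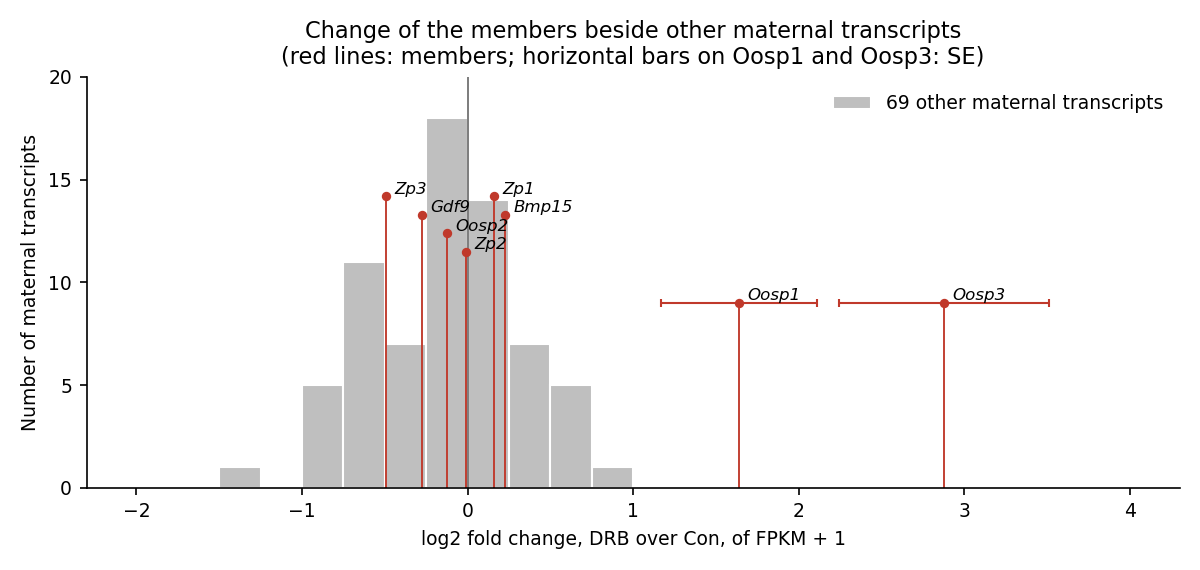
Log2 fold changes, DRB over Con, of FPKM + 1 for 69 other maternal transcripts (grey histogram, number of genes per bin) and for the 8 tested members (red lines, with SE on Oosp1 and Oosp3). The 69 lie between -1.46 and 0.90 with 6 members among them, and Oosp1 and Oosp3 lie at 1.64 and 2.88.

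The genes whose levels followed Oosp3 most closely were taken by Pearson's r of log2(FPKM + 1) over the 6 libraries. Candidates were the 4484 tested genes that averaged 10 FPKM or more and whose symbols were not model or clone names. All points share the same 6 libraries and the gap between the groups is part of each r, so r is given as a measure of likeness only. Picking by r also favours genes that differ between DRB and Con, so the limma calls of the picked genes are a description. The 10 closest candidates were Rbm8a2 (r 0.989), H1f0 (0.968), Mcm7 (0.960), Pramef25 (0.958), Ddit4l (0.956), Oosp1 (0.954), Arl1 (0.949), Khdc3 (0.949), Zfp560 (0.943) and Aftph (0.941). Of them limma called Pramef25, which rose to 25.3 ± 22.8 FPKM in DRB, against 0.867 ± 0.125 FPKM in Con (SD, n = 3 each; log2 fold change 3.44 ± 0.59 SE, limma adjusted p 0.0158). H1f0, a linker histone, was at 32.2 ± 9.12 FPKM in DRB and 10.9 ± 3.78 FPKM in Con, and was not called (limma adjusted p 0.0624). Khdc3, of the subcortical maternal complex, was at 12.9 ± 3.73 FPKM in DRB and 8.94 ± 0.328 FPKM in Con (limma adjusted p 0.568). Zp3 ran the other way, with an r of -0.979. By r, Oosp1 held place 6 among the 4484 candidates but place 34 among all 11892 tested genes other than Oosp3.

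Pramef25 and Ddit4l belong to the list of genes known for transient transcription at the 2-cell stage, a list that held 8 genes called higher in DRB. Of its 31 tested genes limma called these 8 higher and 0 lower, beside 1.53% and 0.95% of all tested genes. Because the list was chosen with earlier results of these data known, the counts given here are a description. Log2 fold changes were above 0 for 28 of the 31, beside 44.0% of all tested genes, and their median was 0.90. The number called was 2 of 30 without DRB replicate 1 and 0 of 41 when low genes were kept in the fit. The median was then 1.44 and 0.58. B020004J07Rik rose to 55.4 ± 28.0 FPKM in DRB, against 3.89 ± 1.48 FPKM in Con, Zfp352 to 44.3 ± 9.47 FPKM against 4.44 ± 2.92 FPKM, and Gm2016 to 157.7 ± 119.4 FPKM against 10.8 ± 4.49 FPKM (SD, n = 3 each; limma adjusted p 0.00364, 0.00453 and 0.00875). The median log2 level of the list was 3.59, 4.70 and 3.57 in DRB replicates 1 to 3 and 3.24, 2.20 and 1.93 in Con replicates 1 to 3. DRB replicate 2 was thus the highest library for this list, and also for Oosp1, Oosp2, Oosp3, Zp2 and Bmp15, and within DRB for Gdf9 and the maternal median, while Con replicate 2, the highest Con library for Oosp1 and Oosp3, was not the highest for the list. Of the 31 genes 3 had an r with Oosp3 above 0.9, beside 162 of all 11892 other tested genes. The median r was 0.63 for the 31 and -0.06 for all tested genes, with the gap between the groups part of each r. The part of the 2-cell stage genes in the Oosp3 difference was not tested.

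The partners of the growth factors in their signalling pathway were described from a list of 21 receptors, SMAD signal carriers and inhibitors. Of them 9 passed the filter and limma called 0 at an adjusted p below 0.05 (1 at an unadjusted p below 0.05), with a median log2 fold change of -0.07, against -0.09 for all tested genes. Bmpr1a, a type I receptor, was at 17.0 ± 8.43 FPKM in DRB and 10.4 ± 2.60 FPKM in Con (limma adjusted p 0.496). Smad2, a signal carrier downstream of GDF9, was at 11.6 ± 7.60 FPKM in DRB and 10.8 ± 2.91 FPKM in Con (limma adjusted p 0.957). Smad7, an inhibitor of the pathway and the gene with the unadjusted p below 0.05, was at 14.33, 8.58 and 3.58 FPKM in DRB replicates 1 to 3 and 3.47, 1.99 and 1.51 FPKM in Con replicates 1 to 3 (limma adjusted p 0.164). Among 19 other growth factors of oocyte and embryo 8 were tested and 0 called (1 lower at an unadjusted p below 0.05, median log2 fold change 0.02). The lower gene was Tdgf1, at 2.61 ± 1.72 FPKM in DRB and 7.68 ± 2.74 FPKM in Con (limma adjusted p 0.181). All its DRB libraries lay below Con. The most abundant of this list were Fgf4 and Tgfb2. Fgf4, a growth factor of the embryo, was at 39.9 ± 8.09 FPKM in DRB and 29.8 ± 3.31 FPKM in Con (limma adjusted p 0.540). Tgfb2 averaged 7.13 FPKM in DRB and 6.96 FPKM in Con (limma adjusted p 0.931).

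The egg surface and the cortex, where the coat and the granules meet sperm, were listed too. Of 11 genes of sperm binding 7 were tested and limma called 0 at an adjusted p below 0.05 (1 at an unadjusted p below 0.05), with a median log2 fold change of -0.13. That gene was Cd9, the egg tetraspanin needed for fusion with sperm, at 67.65, 127.38 and 175.53 FPKM in DRB replicates 1 to 3 and 397.35, 289.31 and 218.93 FPKM in Con replicates 1 to 3. All its DRB libraries lay below Con, with a log2 fold change of -1.34 ± 0.37 (SE) and a limma adjusted p of 0.0844. Itgav, an integrin chain, was at 43.2 ± 8.60 FPKM in DRB and 39.8 ± 14.3 FPKM in Con (limma adjusted p 0.857). Of 18 genes of cortical granules and their release 13 were tested and 0 called (1 higher and 2 lower at an unadjusted p below 0.05; median log2 fold change -0.23). Among these were 2 SNARE proteins with unlike differences, Stx4a at 5.41 ± 2.81 FPKM in DRB and 1.19 ± 0.816 FPKM in Con (limma adjusted p 0.138) and Vamp3 at 28.8 ± 1.26 FPKM in DRB and 52.9 ± 8.62 FPKM in Con (limma adjusted p 0.143). Snap23, another SNARE protein, was at 86.6 ± 8.58 FPKM in DRB and 101.1 ± 13.2 FPKM in Con (limma adjusted p 0.726).

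In the plasminogen system around Plat, 6 of 19 listed genes were tested and limma called 0 at an adjusted p below 0.05 (0 at an unadjusted p below 0.05), with a median log2 fold change of 0.13. S100a10, a cell surface partner of annexin A2 in plasminogen binding, was at 18.9 ± 6.37 FPKM in DRB and 14.1 ± 2.85 FPKM in Con, and the inhibitor Serpine2 at 8.21 ± 4.21 FPKM in DRB and 8.17 ± 4.49 FPKM in Con (limma adjusted p 0.657 and 0.961). Among 29 measured factors that mask, polyadenylate or remove stored maternal mRNAs 26 were tested and 0 called (3 higher at an unadjusted p below 0.05; median log2 fold change 0.17). Tent2, a cytoplasmic poly(A) polymerase, was at 83.54, 54.02 and 58.4 FPKM in DRB replicates 1 to 3 and 25.58, 29.33 and 35.29 FPKM in Con replicates 1 to 3 (limma adjusted p 0.0891). Cpeb4 and Cpeb2, of a family that binds the polyadenylation element, differed by 1.01 ± 0.36 and 1.18 ± 0.42 on the log2 scale (SE; limma, adjusted p 0.167 and 0.172). The most abundant of this list, Eif4e and Ybx1, differed by -0.44 and -0.02 on the log2 scale (limma, adjusted p 0.522 and 0.976).

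The last list held 19 genes taken as regulators of oocyte transcription, with Obox homeobox genes among them. Whether the RNA of the listed genes came from the oocyte or from the embryo was not tested. Of the 19 genes 11 were tested and limma called 0 at an adjusted p below 0.05 (2 higher and 1 lower at an unadjusted p below 0.05). The median log2 fold change was -0.35. Obox6, of the Obox homeobox family, was at 689.4 ± 266.6 FPKM in DRB and 1366 ± 451.7 FPKM in Con (SD, n = 3 each, limma adjusted p 0.166). Obox3, of the same family, was at 10.99, 26.45 and 3.92 FPKM in DRB replicates 1 to 3 and 3.59, 4.23 and 2.46 FPKM in Con replicates 1 to 3 (limma adjusted p 0.22). Zfp36l2, the other gene counted as higher, was at 20.6 ± 8.42 FPKM in DRB and 6.6 ± 3.82 FPKM in Con (limma adjusted p 0.0961). The groups were separate for Zfp36l2 and overlapped for Obox3. Taf4b, a gonadal TFIID subunit, was at 65.6 ± 26.4 FPKM in DRB and 56.4 ± 25.5 FPKM in Con (limma adjusted p 0.810).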

How the data were processed

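RNA from 3 DRB and 3 Con libraries of mouse 4-cell embryos was sequenced as paired ends, per the labels' protocols. The submitters' processing notes name cutadapt 1.16, STAR and mm10. The quantification tool and its gene annotation are not stated there. The deposited values are FPKM, per the file headers, and 55154 of 55335 IDs, versions aside, were found in GENCODE M21, which is on GRCm38 (mm10). Because FPKM is a share of a library, more of an abundant transcript means lower values for others.

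Depth was estimated as the fragment number that put most low values of single-transcript genes within 0.15 of a whole number of fragments (75.5% to 82.6% of them), after taking 160 to 190 bases off each length. The test was limma 3.58.1 in R 4.3.3 on log2(FPKM + 1), for genes that reached 1 FPKM in 3 or more libraries (mean-variance trend, group as the single term, two-sided, Benjamini-Hochberg adjustment over 11893 genes, called below 0.05); changes of low genes are understated on this scale. The fit was tested on simulated data. Members, lists and tests were chosen with earlier results of these data known. Named genes were the members, up to 3 called genes per direction or else the 2 most abundant of each list, the nearest tested genes of Oosp3 and the 10 candidates closest to it by r. Smad7, Tdgf1, Tent2, Cpeb2, Cpeb4, Obox3, Zfp36l2, Stx4a, Nobox, Figla, Cd68, H1foo and Rfpl4b were chosen after their values were seen. Python 3.11.15, pandas 2.3.3 and matplotlib 3.10.9 made tables and figures. No count test was run, because the files used here hold FPKM. Deviations of libraries with the same replicate number correlated at -0.051 to 0.053, and no source says what the numbers mark.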

Additional observations from a re-analysis of the deposited data

How the results depend on the processing

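The alternatives were a pseudocount of 0.1, no filter, median-of-ratios scaling, mitochondrial genes left out, the replicate number as a block, and leaving out each library. Oosp1, Oosp3, Zp3 and Bmp15 kept the sign of their log2 fold changes in all 11 alternatives; Oosp2, Zp1, Zp2 and Gdf9 did not in 2 to 5 of them, each time from a change smaller than the spread between libraries. With a pseudocount of 0.1, 0 members were called, and 164 genes in all (113 higher, 51 lower) against 295 (182 higher, 113 lower). With no filter 0 members, 0 listed genes and 6 genes in all were called (6 higher, 0 lower). Median-of-ratios scaling gave 229 higher and 86 lower calls, and leaving out mitochondrial genes 238 and 85, with the median of all genes moved from -0.09 to 0.03 and Oosp3 at 3.04. With the replicate block 171 genes were called, 127 higher and 44 lower, Oosp3 among them. Without 1 library the counts ran from 47 (DRB replicate 1 left out) to 220 in all, 34 to 139 higher, 13 to 81 lower, 0 to 2 members and 2 to 8 listed genes (8 in the fit with all libraries). The DRB less Con difference of Oosp3 over the maternal median, 3.10 on the log2 scale, ran from 2.52 to 3.64, and that of its share of the OOSP sum, 22.8 percentage points, from 16.8 to 26.8. With 3 libraries a group, the width of the intervals limits what can be said of the members that were not called.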

Other observations

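Plac1, the placental relative of the OOSP genes, was chosen after its values were seen. It was listed at 0 in all 3 DRB libraries and at 0.6, 1.89 and 1.22 FPKM in Con replicates 1 to 3, levels under the filter, so it was not tested. Zp4-ps, the mouse pseudogene of the zona gene ZP4, was listed at 0, 0.25 and 0 FPKM in DRB replicates 1 to 3 and at 0 in all 3 Con libraries.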
